A study of Mus musculus with 16 samples.

Results

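The genes described here encode the proteins of the cytosolic ribosome. They were chosen by symbol, as every Rpl, Rps, Rplp or Rpsa gene in the naming series of the large and small subunits, with pseudogenes, ribosomal kinases and the "like" paralogs left out. This rule took 75 of the 14829 genes in the count table, 45 of the large subunit and 30 of the small subunit, and all 75 passed the filter on low counts. The symbol rule itself reads no measured value. Rps3a1, Fau and Rack1 (listed as Gnb2l1) are ribosomal proteins that fall outside the symbol rule, and Rpl26 had no row in the table and was not analysed here. The RNA came from hematopoietic stem cells of 8 mice, 4 young and 4 old. Bone marrow of each mouse was divided into a portion given vehicle and a portion given dmPGE2, a long-lived analog of prostaglandin E2, for 1 h at 37 °C before the cells were sorted. The 4 groups were therefore young vehicle, young dmPGE2, old vehicle and old dmPGE2, with 4 libraries each, and every library of 1 age has a partner from the same mouse. Mice 477, 478, 479 and 480 carry the first of 2 dates in the sample descriptions and mice 483, 484, 485 and 486 the second, with 2 young and 2 old mice on each date. Not given in the sources used here are the exact ages, sex and strain of the mice, the sorting markers and what the dates record.

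A ribosome joins a small subunit, which reads the messenger RNA, to a large subunit, which forms the peptide bonds. Each subunit is ribosomal RNA packed with many small proteins, mostly in single copies, and their genes are known to be expressed at high levels and in step. Most of their messenger RNAs start with an unbroken run of C and T (the 5′ terminal oligopyrimidine motif), through which mTOR and Larp1 regulate their translation. Hematopoietic stem cells are known for a low rate of protein synthesis, and loss of 1 copy of several of these genes causes inherited or acquired anemia.

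An annotated start of the transcript is shown for members that the results return to, because the C and T run is the sequence feature for which this family is known. The windows hold 15 bases before and 15 bases from the annotated RefSeq start on (GRCm38.p6, written 5′ to 3′ on the gene's strand), with the longest run of C and T in capitals. Where a gene had several annotated starts, the start whose window held the longest run was kept. The start kept for Rps19 lies inside the gene's span in the count table, which begins at base 24884714. The 4 members shown first hold a run of at least 8 such bases, and the next 3 do not.
Rpl38 (chr11:114668565-114668594, plus strand): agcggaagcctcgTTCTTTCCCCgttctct
Rpl35 (chr2:39005117-39005146, minus strand): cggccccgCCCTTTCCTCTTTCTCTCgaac
Rpl13a (chr7:45128731-45128760, minus strand): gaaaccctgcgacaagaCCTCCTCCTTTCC
Rps6 (chr4:86857353-86857382, minus strand): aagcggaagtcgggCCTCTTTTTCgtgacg
Rps19 (chr7:24884898-24884927, plus strand): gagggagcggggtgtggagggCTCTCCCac
Rps3 (chr7:99483695-99483724, minus strand): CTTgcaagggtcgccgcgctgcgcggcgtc
Rplp0 (chr5:115559452-115559481, plus strand): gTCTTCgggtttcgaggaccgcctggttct

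Of the 75 members, 55 had a RefSeq entry, and 25 of these (45.5%) held a run of 8 or more C or T on the gene's strand at any of their annotated starts. The same search found one at any start of 14.9% of 10521 other tested genes and of 13.9% of all 27025 genes in the RefSeq table. The number of annotated starts per gene was not compared between members and other genes. The longest run, 21 bases, lay at Rpl7a, a large subunit protein, and the shortest maximum, 2 bases, at Rpl24. A match is a description of these letters at an annotated start, and no match says only that the run is not in this window. Members with and without a run differed little in their expression changes. The median log2 change with dmPGE2 in young mice was -0.25 with a run and -0.22 without one. Between old and young mice it was -0.11 and -0.09 in vehicle, and 0.18 and 0.19 in dmPGE2.

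Libraries held 12960704 to 19226963 counts on named genes. All 15 stem cell markers listed for this check, among them Kit, Procr and Mecom, were detected in every library, with a summed level of 4206 to 7041 CPM (counts scaled to library size). These markers summed to 5715 to 7041 CPM on the first date and 4206 to 5719 CPM on the second. In vehicle 11 of the 15 were called lower on the second date and 0 higher, against 403 of all 13369 genes called lower. The libraries of the second date stood apart in other markers as well. Summed neutrophil markers (9 of 10 in the table) were 742 to 1435 CPM there against 4.11 to 9.43 CPM on the first date, myeloid progenitor markers 1663 to 3577 against 254 to 466, and T and NK cell markers (10 of 11 in the table) 211 to 494 against 34.3 to 99.2. All 12 proliferation markers fell with age in both arms, from 2209 to 3416 CPM summed in young libraries to 1117 to 1865 in old ones. Stem cell markers were called higher in old cells for 10 of 15 in vehicle and 7 of 15 in dmPGE2, and 1 lower in each. For these and the next lists, the background was 8.47% of all genes called higher and 8.86% lower in old vehicle cells. In dmPGE2 it was 7.85% and 6.41%. All 10 platelet and megakaryocyte markers were above 0 in old cells in both arms, with 3 and 4 called, and summed to 1435 to 2082 CPM in young and 2444 to 3152 CPM in old libraries. In vehicle all 9 neutrophil, all 10 erythroid and all 10 T and NK cell markers were below 0 in old cells, with 2, 3 and 2 called, and in dmPGE2 7 of 8, 9 of 10 and 10 of 10 were, with 1, 4 and 3 called. Summed erythroid markers in vehicle averaged 2227 CPM in old and 3477 CPM in young mice on the second date. On the first date they averaged 1957 and 1912 CPM. Myeloid progenitor markers were mixed, with 2 of 10 called higher and 3 lower in old vehicle cells. Their sum averaged 447 CPM in old and 273 CPM in young vehicle on the first date, and 1689 and 3015 CPM on the second. The part of these markers in the ribosomal protein values below was not tested. Spearman's rho of the ribosomal protein share with the summed level of the 9 marker lists over the 16 libraries, which share mice, lay between -0.20 and 0.29.

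The 75 genes made up 2.29 to 3.10% of the counts in a library, a 1.35-fold range. The 95% Wilson interval of each share, which covers counting error only, was at most 0.00915 percentage points to either side. By level per kilobase of the table's gene length, Rpl32, a small protein of the large subunit, stood first with 1640 CPM per kilobase (chr6:115805514-115808743, minus strand). Rpl13 followed with 1244, Rps19 with 1098, Rps14 with 1071 and Rps18 with 1057 CPM per kilobase. The median was 414 CPM per kilobase over all members, 303 for the large and 476 for the small subunit, against 11.3 over all tested genes.

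Most of the proteins are needed in equal number, but the counts credited to their genes were not equal. The 72 members with a mean of at least 20 CPM spanned a 46.8-fold range per kilobase, down to Rpl22 with 53.8 and Rps15a with 35.1 CPM per kilobase. Rps15a carries 5134 bases of exon in the table, which lowers its value per kilobase. Another 3 members lay far below the rest. Rpl34 had 11.0, Rps27 5.86 and Rpl30 4.18 CPM per kilobase, with mean levels of 7.55 ± 1.48, 3.37 ± 1.12 and 2.62 ± 0.619 CPM (SD over 16 libraries).

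Ribosomal protein genes have many processed copies in the mouse genome, and how reads that match several copies were counted is not given in the sources used here. The share of each gene's 50-base stretches that occur in no other annotated transcript (GENCODE M21, GRCm38) had a median of 61.7%. At least 1 pseudogene shared stretches with 74 of the 75 members, with a median of 8 pseudogenes and up to 121 for Rpl7a. For 26 members the unique share was under 50%, and for Rpl35, with 4.91%, it was lowest. It was 89.0% for Rpl34, 53.8% for Rps27 and 27.2% for Rpl30. For the least unique transcript of each gene it was 49.4%, 1.35% and 20.8%. Across the 75 genes, which are not independent, its Spearman correlation with the level per kilobase was 0.09. The counts of members with little unique sequence, and folds drawn from them, are uncertain for this reason.

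**Figure D1:**
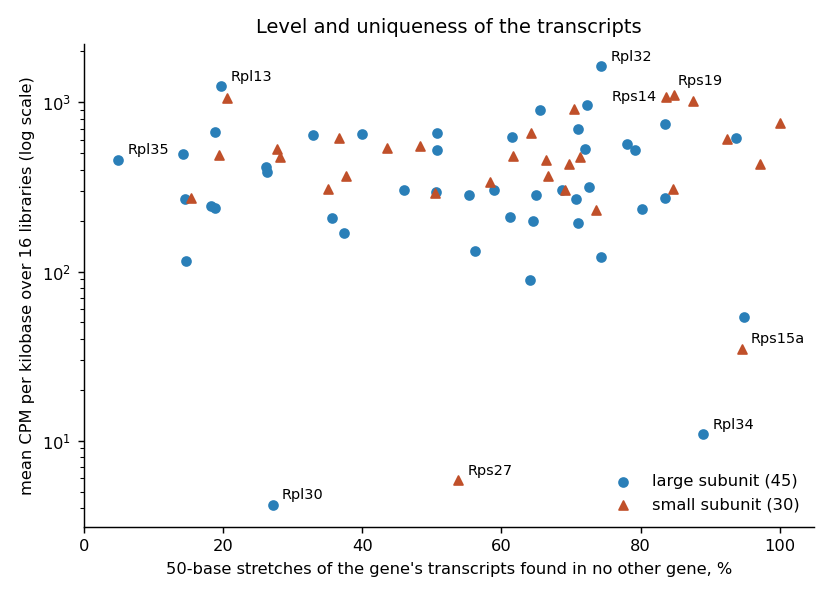
Mean level in CPM per kilobase over 16 libraries (vertical, log scale) against the share of 50-base transcript stretches found in no other gene (horizontal, %), 1 point per gene, with circles for the 45 large subunit and triangles for the 30 small subunit genes. Rpl34, Rps27 and Rpl30 lie at 11.0, 5.86 and 4.18 CPM per kilobase and spread over the horizontal axis, from 27.2 to 89.0%.

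Over the 16 libraries the members moved together. The median Pearson r between a member's log2 CPM and the median profile of all members was 0.89, and 56 members (74.7%) exceeded 0.8, against 0.115% of the other genes. Between pairs of the 72 members of at least 20 CPM the median r was 0.80, with a range from -0.07 to 0.98, and it was 0.84 after removing group and date means. These correlations are descriptions: the genes share libraries, scaling and depth, and the profile is made from the members. The amplitude was small, with a median SD of 0.16 on the log2 scale against 0.29 over all tested genes. The members that followed the profile least were the 3 of low count, Rps27, Rpl30 and Rpl34, and then Rpl38, with an SD from the profile of 0.52, 0.35, 0.31 and 0.15.

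**Figure D2:**
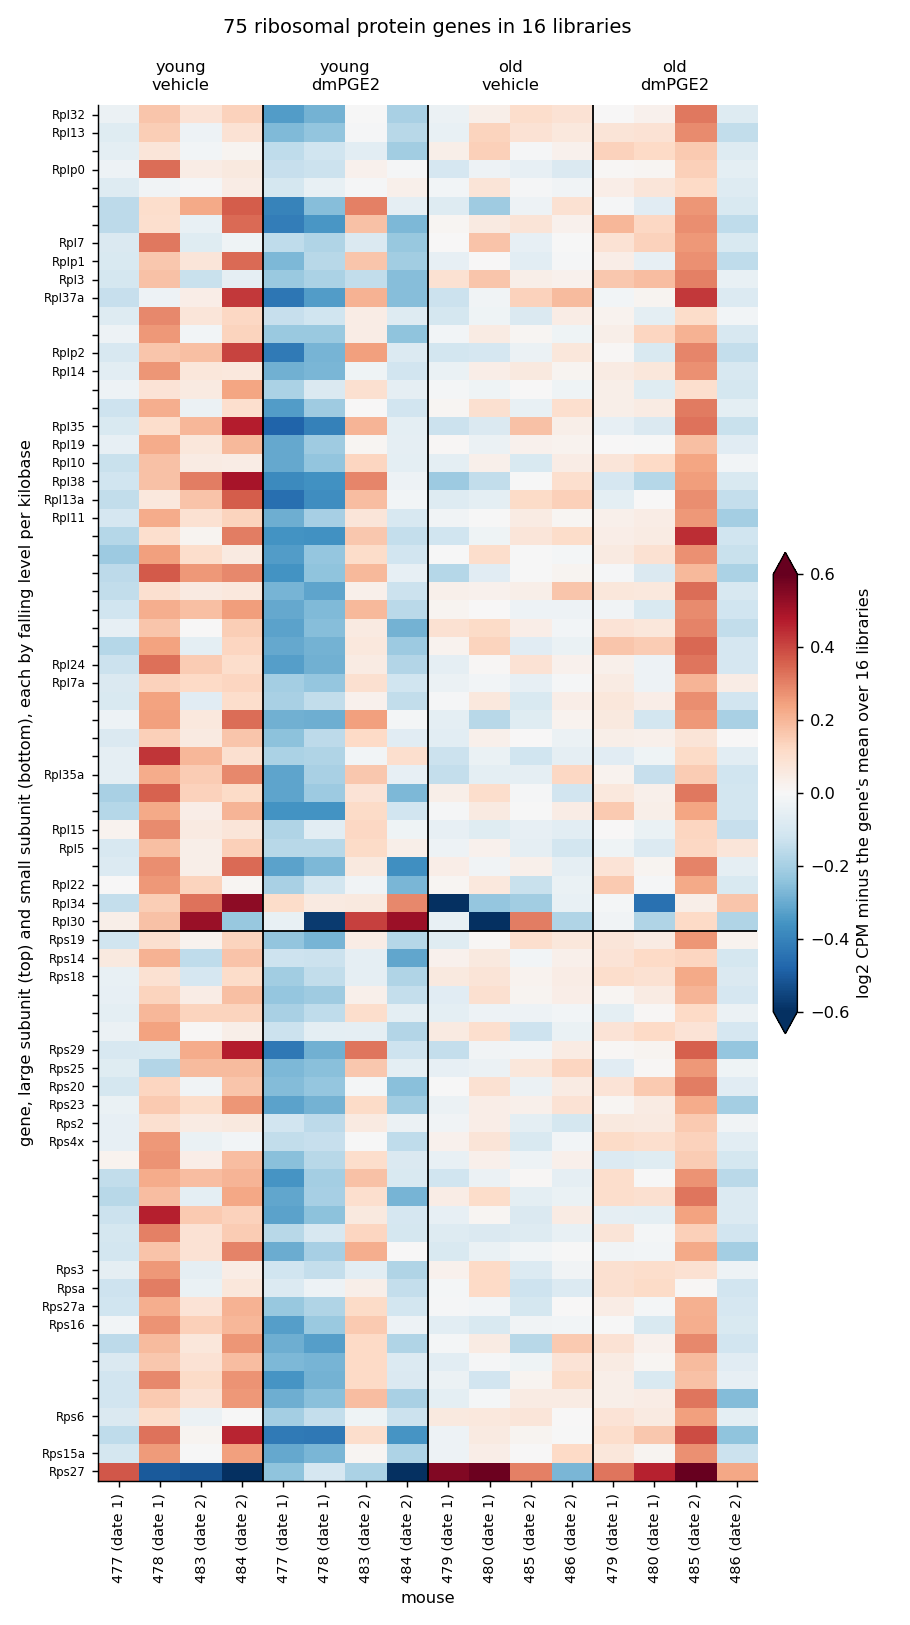
Log2 CPM of each of the 75 genes (rows, large subunit above the line and small subunit below it) in each of the 16 libraries (columns, by group and mouse), minus the gene's mean over the libraries, with names for genes that the text describes, on a colour scale from -0.6 to 0.6. Nearly whole columns share a colour: young dmPGE2 libraries of mice 477, 478 and 484 are low, and young vehicle of mouse 478 and old dmPGE2 of mouse 485 are high, while Rps27, Rpl30 and Rpl34 follow patterns of their own.

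The first question was whether dmPGE2 changed ribosomal protein messenger RNA within a mouse. In young mice the share was 2.83% ± 0.219 with vehicle and 2.43% ± 0.175 with dmPGE2, and in old mice it was 2.69% ± 0.0758 and 2.69% ± 0.204 (SD, n = 4 mice each). Mouse by mouse, the young went from 2.63 to 2.29% in mouse 477, from 3.10 to 2.35% in mouse 478, from 2.68 to 2.68% in mouse 483 and from 2.91 to 2.38% in mouse 484. It was thus lower with dmPGE2 in 3 of the 4 young mice and level in mouse 483. The old went from 2.67 to 2.66% in mouse 479, from 2.77 to 2.64% in mouse 480, from 2.59 to 2.97% in mouse 485 and from 2.72 to 2.48% in mouse 486. The old mice had no common direction, and mouse 485 alone had a clear gain. Because these are bulk libraries, fewer cells with much of this RNA and less of it in each cell cannot be told apart.

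**Figure D3:**
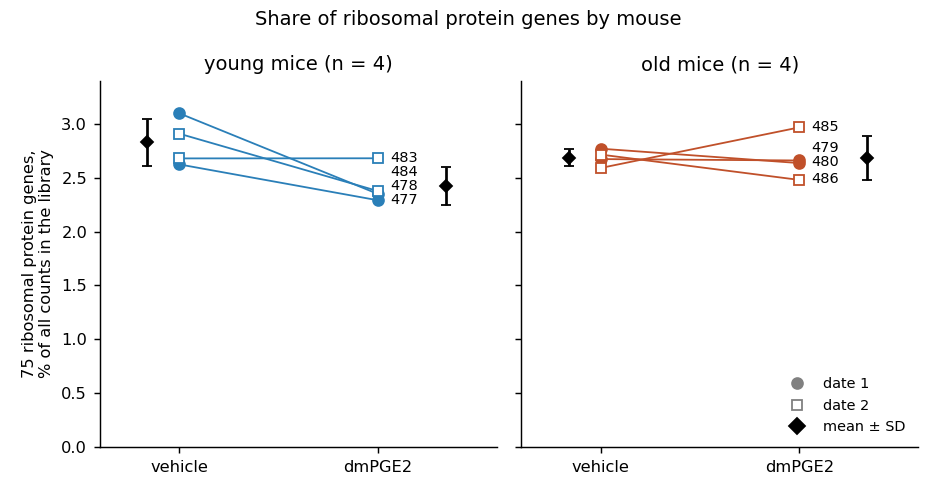
Summed share of the 75 genes in each library (vertical, % of counts) with vehicle and dmPGE2 (horizontal), with lines joining the libraries of 1 mouse, filled circles for the first date, open squares for the second, and diamonds with bars for mean ± SD of 4 mice. The lines of young mice 477, 478 and 484 go down and that of 483 is level, while among old mice the line of 485 goes up to 2.97%.

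In young mice every one of the 75 members had a lower fitted value with dmPGE2, by a median of -0.22 on the log2 scale, against -0.24 for the large and -0.22 for the small subunit and 0.01 over all 13942 genes tested, of which 48.6% were below 0. No member passed an adjusted p of 0.05 in edgeR's quasi-likelihood test, and neither did any other gene in young mice (0% of all genes called). At an unadjusted p under 0.05, 62 members (82.7%) were lower and 0 higher, against 5.82% lower and 12.8% in either direction among all genes. DESeq2 called 9 members lower, among 277 genes in all and 72 members with an adjusted p, and limma-voom called 0. The median stayed between -0.30 and -0.16 when any 1 mouse was left out, and was -0.23 with DESeq2 size factors and with TMM factors computed without the members.

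Rpl32 had the smallest p of the members. It measured 802, 923, 869 and 905 CPM with vehicle in mice 477, 478, 483 and 484, and 651, 675, 822 and 719 CPM with dmPGE2. Every young mouse was lower with dmPGE2, though the ranges of both groups overlap through mouse 483. The log2 change was -0.29 ± 0.07 (SE, edgeR adjusted p = 0.149). Rpl35, with the little unique sequence given above, had -0.36 ± 0.09 (adjusted p = 0.176, lower in 3 of 4 mice). Rpl19, a large subunit protein at the interface of the subunits, had -0.25 ± 0.06 (adjusted p = 0.186, lower in 4 of 4). In all, 23 members (30.7%) were lower in every young mouse, against 9.79% of all genes.

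The young mice differed. Within mouse 477, 73 of the 75 members were lower with dmPGE2 (median log2 difference -0.18), within mouse 478 it was 74 (-0.41), and within mouse 484 it was 73 (-0.29). In mouse 483 only 26 were lower and 49 higher, with a median of 0.02. Over all genes, 47.4 to 50.8% were lower in each of the 8 mice.

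In old mice 72 of the 75 members had values above 0 with dmPGE2 and 3 below (51.6% of all genes were below 0), at a median of only 0.05. None passed (0% of all genes called), and none had an unadjusted p under 0.05, against 7.86% of all genes. DESeq2 and limma-voom also called 0 members. Mouse 485 had 74 members higher (median 0.23), and without it the median over the members was -0.02. Members were lower in mouse 486 (67 of 75, median -0.12), higher in mouse 479 (68 of 75, median 0.08) and even in mouse 480 (41 higher, median 0.01). These log2 values use TMM scaling, while the shares above are of raw counts. The smallest p belonged to Rps2, a small subunit protein at the messenger RNA entry, with 0.10 ± 0.05 (edgeR adjusted p = 0.720, higher in 4 of 4). Next were Rpl10, a late joining protein of the large subunit, with 0.12 ± 0.08 (adjusted p = 0.781, higher in 3 of 4) and Rplp0 with 0.09 ± 0.06 (adjusted p = 0.817, higher in 4 of 4). Rps2 and Rplp0 were the only members higher in every old mouse (2.67% of members, against 8.76% of all genes).

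The difference between the ages in the dmPGE2 change was tested directly. All 75 members had a positive difference, old minus young, while 52.1% of all genes were below 0. The members' median was 0.27, and 0.20 to 0.34 with any 1 mouse left out. It passed for 0 members (0% of all genes called), also in DESeq2 and limma-voom. At an unadjusted p under 0.05, 49 members (65.3%) were higher, against 3.16% of all genes higher and 6.85% in either direction. Rpl32 had 0.31 ± 0.09 (edgeR adjusted p = 0.696), Rpl14 0.31 ± 0.10 and Rpl22 0.35 ± 0.11, both with the same adjusted p of 0.696. The median difference was positive within each date, 0.33 on the first and 0.20 on the second. Only 2 mice of each age remain on a date. On the second date the ages overlapped, with medians by mouse of 0.02 and -0.29 in young mice 483 and 484. Old mice 485 and 486 had 0.23 and -0.12.

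Averaged over all 8 mice, 71 members had values below 0 (51.1% of all genes) and the median was -0.08. None passed (0.61% of all genes called), in edgeR, DESeq2 or limma-voom. An unadjusted p under 0.05 was reached by 7 members (9.33%), all lower, against 5.48% of all genes lower. The smallest p values were those of Rpl32 (-0.13 ± 0.05, edgeR adjusted p = 0.239), Rpl35 (-0.17 ± 0.06, adjusted p = 0.265) and Rps23 (-0.15 ± 0.06, adjusted p = 0.306). No member was lower in all 8 mice, against 1.33% of all genes.

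**Figure D4:**
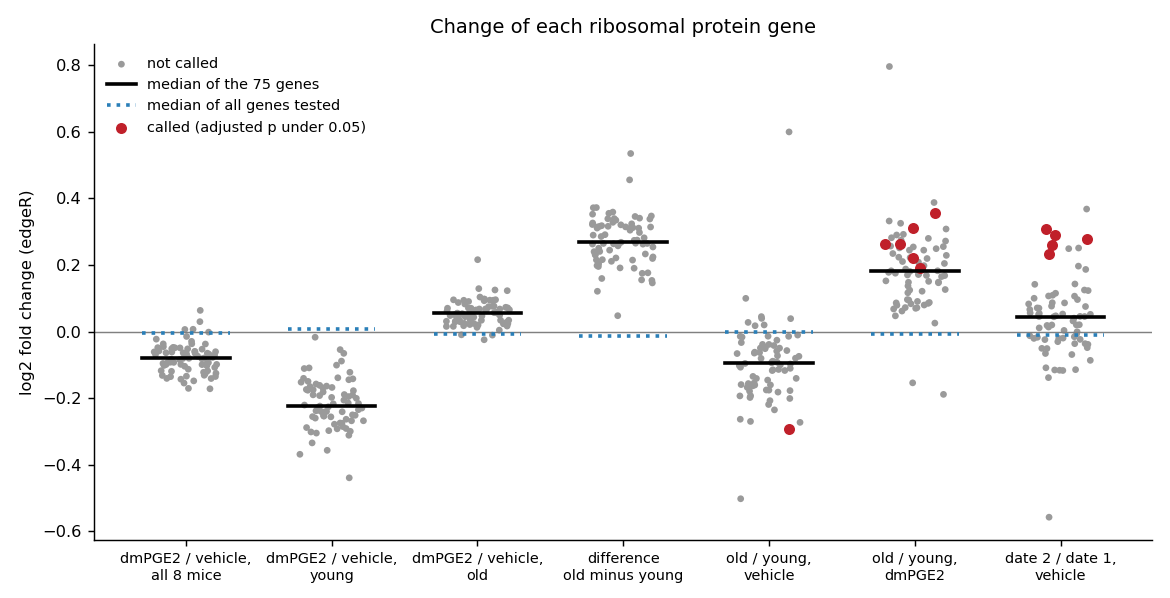
Fitted log2 change of each of the 75 genes (points) in 7 comparisons (horizontal), with a black line at the median of the 75, a dotted line at the median of all genes tested and large red points for an adjusted p under 0.05. The medians are -0.08, -0.22 and 0.05 for dmPGE2 in all, young and old mice, 0.27 for the difference of the ages, -0.10 and 0.18 for old against young in vehicle and dmPGE2, and 0.05 for the dates.

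The dmPGE2 change was also fitted by date, since other genes responded differently on the 2 dates. On the first date the members' median was -0.12, with 73 below 0 (50.8% of all genes), and none passed (2.93% of all genes called). There 8 members had an unadjusted p under 0.05, all lower (10.7%, against 5.73% of all genes), among them Rpl32 (-0.18). On the second date the median was -0.04, none passed (0.387% of all genes called) and none had an unadjusted p under 0.05 (8.63% of all genes). The median of the second date turned positive, to 0.04 and 0.05, without mouse 484 or 486. The difference between the dates passed for no member (1.08% of all genes called), with a median of 0.09 and 1 member at an unadjusted p under 0.05 (9.67% of all genes), Rpl5 (0.21 ± 0.09, adjusted p = 0.482). DESeq2 and limma-voom called 0 members in these 3 comparisons. A fit of the 4 mice of the first date alone called 19 members lower in young mice, among 477 genes in all, and a fit of the second date alone called 0. Both rest on 2 young and 2 old mice.

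The second question was how old cells differ from young ones. In vehicle libraries 67 of the 75 members were below 0 in old cells (50.2% of all genes), with a median of -0.10, and 1 member fell past the threshold, 1.33% of them against 8.86% of all genes called lower and 17.3% called in either direction. An unadjusted p under 0.05 was reached by 14 members (18.7%), all lower, against 16.4% of all genes lower and 31.4% in either direction. The share of called members was thus below the background in this comparison.

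The member that fell was Rpl38, a small protein of the large subunit known for its part in the translation of Hox messenger RNAs in the mouse embryo (its start is shown above). It measured 106, 130, 142 and 162 CPM in young vehicle and 98.7, 103, 115 and 123 CPM in old vehicle. The lowest young value lay within the range of the old ones, and on each date both old mice were below both young mice. The log2 change was -0.29 ± 0.09 (edgeR adjusted p = 0.0451). That call is fragile: the adjusted p lay between 0.0232 and 0.346 over 16 alternatives and passed in 3 of them. In dmPGE2 libraries Rpl38 measured 88.2, 89.2, 141 and 112 CPM in young and 107, 102, 136 and 108 CPM in old cells, with a change of 0.09 ± 0.11 (adjusted p = 0.627).

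No overlap between the ages in vehicle was seen for Rpl15 and Rps16, both lower in every old library (2.67% of members against 7.58% of all genes), and for 0 members in the other direction (9.09% of all genes). Rpl15, a core large subunit protein, measured 227, 273, 232 and 236 CPM in young and 216, 213, 216 and 215 CPM in old cells. Its change of -0.18 ± 0.07 did not pass (edgeR adjusted p = 0.105), nor did that of Rps16 (-0.21 ± 0.07, adjusted p = 0.0646). Rps16 was barely separated, at 204.1 CPM in its lowest young library (mouse 477) and 203.95 CPM in its highest old one (mouse 486).

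In dmPGE2 libraries the sign was the opposite. There 73 of the 75 members were above 0 in old cells and 2 below (51% of all genes were below 0), with a median of 0.18, and 6 rose past the threshold (8% of members against 7.85% of all genes called higher), so the share called was at the background. At an unadjusted p under 0.05, 37 members (49.3%) were higher, against 14.4% of all genes higher and 27.9% in either direction. Both age comparisons and the dmPGE2 comparisons use the same libraries, so the young dmPGE2 values enter this result and the one on dmPGE2 in young mice alike.

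Among the called members the largest rise was that of Rpl3, a large subunit protein that reaches to the peptide bond forming center. It measured 741, 759, 781 and 726 CPM in young and 968, 984, 1066 and 839 CPM in old dmPGE2 libraries. All 4 old libraries lay above all 4 young ones. The log2 change was 0.36 ± 0.07 (edgeR adjusted p = 0.00866), and it passed in 15 of 16 alternatives, the exception being the second date alone (adjusted p = 0.240). In vehicle the same gene measured 804, 976, 788 and 834 CPM in young and 921, 970, 887 and 882 CPM in old cells, which overlap (0.10 ± 0.06, adjusted p = 0.323). Only 32.9% of the stretches of Rpl3 were unique, with 26 pseudogenes sharing the others.

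The next rises among them were Rps20 (0.31 ± 0.09, edgeR adjusted p = 0.0373) and Rpl7 (0.26 ± 0.08, adjusted p = 0.0426), a small and a large subunit protein. Rps19, the gene most often mutated in Diamond-Blackfan anemia, rose by 0.26 ± 0.07 (adjusted p = 0.0317), from 584, 567, 708 and 610 CPM in young to 722, 712, 826 and 698 CPM in old cells. Its groups overlapped through young mouse 483. Rps3, a small subunit protein at the messenger RNA entry with 97.2% unique stretches, rose by 0.19 ± 0.05 (adjusted p = 0.0407). Rps3 measured 741, 729, 769 and 710 CPM in young and 861, 865, 856 and 788 CPM in old cells, with no overlap. Besides Rpl3 and Rps3, only Rps27 of the members had no overlap (3 members, 4%, against 8.22% of all genes), at 1.53 to 2.97 CPM in young and 3.76 to 5.08 CPM in old cells (0.80 ± 0.37, adjusted p = 0.194).

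Apart from that of Rpl3, these 6 calls rest on single mice, and none of the 6 held on the second date alone. Without mouse 486 there were 46 called members and without mouse 483 there were 15, but without any 1 of the other 6 mice only 1, Rpl3. A fit of the first date alone called 51 members and of the second date alone 0. DESeq2 called 15 and limma-voom 10, each including the same 6.

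**Figure D5:**
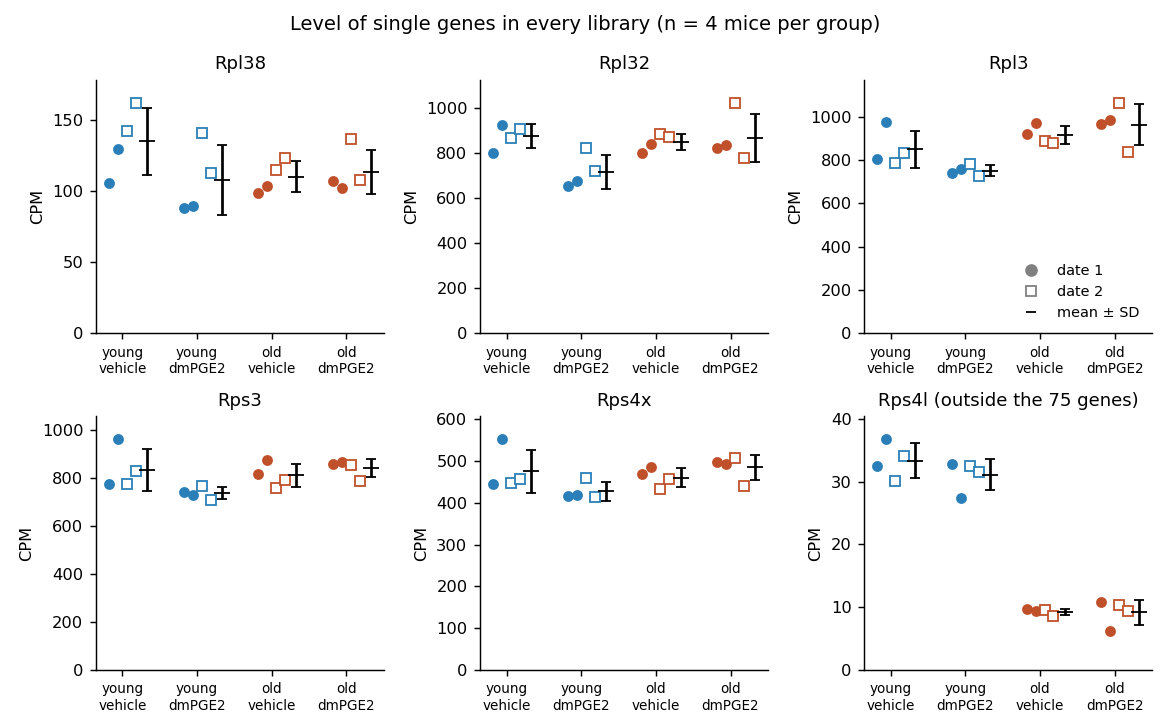
Level in CPM (vertical) of 5 member genes and of Rps4l in each library by group (horizontal), filled circles for the first date, open squares for the second, bars for mean ± SD of 4 mice. Rpl3 and Rps3 separate by age only in dmPGE2 libraries. Within each group, old and young, Rpl38 is higher in the libraries of the second date than in those of the first. Rps4l lies at 27.5 to 36.7 CPM in young and 6.22 to 10.8 CPM in old libraries of both arms.

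Measured relative to the members' own median in each library, which removes the shift they share, no member was higher or lower in all old libraries of both arms, against 2.22% (higher) and 2.57% (lower) of all genes.

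The dates differed in 5 members in vehicle, all higher on the second date (6.67% against 8% of all genes called higher), while the median over the members was 0.05. They were Rpl38 (0.31 ± 0.09, edgeR adjusted p = 0.0490), Rpl37a (0.29 ± 0.08, adjusted p = 0.0442), Rpl35 (0.28 ± 0.08, adjusted p = 0.0471), Rpl13a (0.26 ± 0.07, adjusted p = 0.0344) and Rps25 (0.23 ± 0.06, adjusted p = 0.0304). Of these, 1 or 0 remained called without any 1 mouse. The change with date was related to length: over the 72 members of at least 20 CPM, Spearman's rho with gene length was -0.53, with a median of 0.09 in 27 genes under 600 bases and 0.01 in the other 45. For dmPGE2 in young mice rho was 0.47, with medians of -0.26 and -0.19. The stem cell, neutrophil, myeloid and proliferation markers given above differ between the same libraries, and their part was not tested. The difference between dates in the effect of age passed for no member in edgeR, DESeq2 or limma-voom (0% of all genes called), with 1 member, Rps29, at an unadjusted p under 0.05 (-0.35 ± 0.15), against 5.89% of all genes.

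Some members are known for roles beyond the shared one. The stalk that recruits elongation factors is built on Rplp0 with Rplp1 and Rplp2. With dmPGE2 in young mice Rplp0 had -0.16 ± 0.06, Rplp1 -0.24 ± 0.10 and Rplp2 -0.30 ± 0.10, none passing. Rplp0 measured 1196, 1540, 1258 and 1270 CPM in young vehicle and 1109, 1117, 1241 and 1216 CPM in young dmPGE2, lower in all 4 mice with overlapping ranges.

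Rpl5 and Rpl11, which bind and inhibit Mdm2 when ribosome assembly is disturbed, had -0.11 ± 0.07 and -0.22 ± 0.08 in young and 0.07 ± 0.07 and 0.02 ± 0.08 in old mice. Among genes whose loss causes anemia, Rps19 had -0.19 ± 0.06, Rps14 -0.23 ± 0.08 and Rpl35a -0.25 ± 0.09 in young mice. In old mice they had 0.08 ± 0.06, 0.03 ± 0.08 and 0.01 ± 0.09. None of these values passed.

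Rps6, the target of S6 kinase, had -0.12 ± 0.06 in young and 0.03 ± 0.06 in old mice. It was at 0.21 ± 0.07 in old against young dmPGE2 libraries (edgeR adjusted p = 0.0766). Rpsa, also known as a laminin receptor, had -0.11 ± 0.07 in young and 0.05 ± 0.07 in old mice. Rps27a, made as a fusion with ubiquitin, had -0.20 ± 0.08 and 0.07 ± 0.08. Outside the symbol rule, Fau had -0.25 ± 0.10 and Gnb2l1 -0.19 ± 0.07 in young mice, and neither was called in any comparison above.

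The strongest age difference in the wider family lay in a paralog. Rps4l, a copy of Rps4x whose 941 bases fill its whole span on chr6:148354656-148355596 (plus strand), measured 32.5, 36.7, 30.1 and 34.1 CPM in young vehicle and 9.64, 9.37, 9.45 and 8.52 CPM in old vehicle. In dmPGE2 it measured 32.9, 27.5, 32.5 and 31.5 CPM in young and 10.8, 6.22, 10.3 and 9.30 CPM in old cells. No old library overlapped a young one in either arm. The log2 change was -1.86 ± 0.14 in vehicle (edgeR adjusted p = 3.3e-05) and -1.77 ± 0.19 in dmPGE2 (adjusted p = 0.000216), and it passed in all 16 alternatives of each. Its level per kilobase, 22.01 CPM, was far below the 528 CPM of Rps4x, and 85.1% of its stretches were unique. Rps4x itself had -0.05 ± 0.07 in vehicle (adjusted p = 0.658) and 0.18 ± 0.06 in dmPGE2 (adjusted p = 0.0886), and neither passed.

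Of the other 4 paralogs tested, Rps27l (-0.35 ± 0.09, edgeR adjusted p = 0.0160) and Rpl36al (-0.37 ± 0.10, adjusted p = 0.0257) fell with age in vehicle. Rpl7l1 and Rpl22l1 had -0.09 ± 0.06 and -0.07 ± 0.10 there and did not pass. In dmPGE2 libraries Rps4l was the only paralog called.

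The wider machinery was counted from lists. Of 51 genes of ribosomal RNA transcription and assembly, 17 fell and 0 rose with age in vehicle (median -0.22), and 8 fell and 1 rose in dmPGE2 (median -0.17). The share that fell was 33.3% against 8.86% of all genes called lower in vehicle, and 15.7% against 6.41% in dmPGE2. Those that fell included the methyltransferases Fbl (-0.49 ± 0.08, edgeR adjusted p = 0.00162) and Nop2 (-0.41 ± 0.09, adjusted p = 0.00978) and the nucleolar protein Ncl (-0.27 ± 0.05, adjusted p = 0.00446) in vehicle. With dmPGE2 over all mice only Nhp2l1, which binds box C/D RNAs, rose (0.53 ± 0.09, adjusted p = 0.0252). The difference between this list and the ribosomal proteins was not tested.

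Of 76 mitochondrial ribosomal proteins, 15 fell with age in vehicle and 2 in dmPGE2, with none higher in either arm. That was 19.7% of the list in vehicle, above the 8.86% of all genes called lower, and 2.63% in dmPGE2, below the 6.41%. Mrpl33 (-0.61 ± 0.11, edgeR adjusted p = 0.00438), Mrpl18 (-0.60 ± 0.09, adjusted p = 0.00107) and Mrpl36 (-0.56 ± 0.11, adjusted p = 0.00514) led in vehicle. With dmPGE2 in young mice their median was -0.19, with 71 of 76 below 0 and none called.

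Of 35 translation factors tested, 2 rose and 6 fell with age in vehicle, and 3 rose and 3 fell in dmPGE2. In vehicle 5.71% of the list rose (8.47% of all genes) and 17.1% fell (8.86%), and in dmPGE2 8.57% rose (7.85%) and 8.57% fell (6.41%), the latter shares near the background. The helicase Eif4a2 rose in both arms (0.41 ± 0.07, edgeR adjusted p = 0.00213, and 0.44 ± 0.06, adjusted p = 0.000999). The elongation factor Eif5a fell in both (-0.31 ± 0.06, adjusted p = 0.00446, and -0.26 ± 0.06, adjusted p = 0.0139). With dmPGE2 over all mice the start codon factor Eif1 rose (0.35 ± 0.06, adjusted p = 0.0220). Of 23 regulators of growth and ribosomal protein translation, Mycn was the only one called for dmPGE2 over all mice (-0.85 ± 0.14, edgeR adjusted p = 0.0433). That was 4.35% of the list, against 0.61% of all genes called in either direction. Mycn was lower with dmPGE2 in every mouse, but the dates differed. On the first date Mycn went from 317 to 442 CPM in vehicle to 155 to 170 CPM in dmPGE2. On the second date it went from 136 to 230 CPM to 99.5 to 169 CPM. Mycn rose with age in vehicle (0.47 ± 0.08, edgeR adjusted p = 0.00237), and Max, the partner of Myc proteins, in dmPGE2 (1.36 ± 0.21, adjusted p = 0.00177). They were the only regulators called with age. In each arm 4.35% of the list rose, below the 8.47% of all genes in vehicle and 7.85% in dmPGE2.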

How the data were processed

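RNA from sorted hematopoietic stem cells was extracted with RNeasy Plus Mini and made into Nextera XT libraries, per the labels' protocols. The authors deposited raw counts per gene (whole numbers, no normalization). STAR 2.5.2b, featureCounts, Subread 1.5.1 and mm10 are named, per the submitters' processing notes. Not given in the sources used here are the gene annotation, strand setting and treatment of multi-mapped reads. Every deposited gene exceeded 0.5 CPM in at least 2 libraries, and 2504 empty lines held no gene and were left out. No 2 libraries were identical.

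The 16 libraries, of 4 groups with 4 mice each, were fitted in R 4.3.3 with edgeR 4.0.16 (TMM factors, 0.964 to 1.05; filterByExpr; robust quasi-likelihood F test, two-sided; Benjamini-Hochberg over all genes tested; threshold 0.05). The dmPGE2 fits hold the mouse as a block, since each mouse gave both portions, and paired libraries deviated together over all genes (r = 0.349 to 0.595). Over the members alone r ranged more widely, from 0.134 in mouse 479 to 0.656 in mouse 477. The age fits use 8 libraries of 1 arm with date as a term. They tested 13369 genes in vehicle and 13279 in dmPGE2. SE is the log2 change divided by the square root of F. CPM use TMM-scaled library sizes, and shares use raw totals. Each mouse gave 1 library per arm, so in the age and date fits of 1 arm p-values measure the spread between mice. In the dmPGE2 fits, which hold the mouse as a block, they measure how the change within a mouse varies between mice.

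Alternatives were DESeq2 1.42.0 size factors and Wald test, limma 3.58.1 (voom), TMM factors without the members, no filter, no block or no date term, 1 date alone, each mouse left out and, added after seeing the data, members of at least 20 CPM only. The scripts were tested on simulated data. Runs of C and T were searched on the gene's strand only, in windows of 30 bases. Of several annotated starts of a gene, the one with the longest run was kept. Markers and gene lists are described by counts and medians.

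Named genes are, for each comparison, the up to 4 called members of largest rise and of largest fall or, with none called, the 3 of smallest p. Also named are members of known special function, the 4 highest and 4 lowest per kilobase, the 4 that follow the members' median profile least, and listed non-members with the smallest p among those called. Some of the genes this rule names are not reported here. Rps3, Rps27, Rpl15, Rps16, Rps18, Rpl7a, Rpl24 and Rps29 were added after their values were seen. The members and lists were chosen with earlier results of these data known.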

Additional observations from a re-analysis of the deposited data

Results flagged for a closer look

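Within the groups of 4 libraries, 7 of 112 gene and group combinations (28 items) held a library whose gap to its nearest neighbour exceeded Dixon's 95% critical value as a share of the group's range. Chance gives about 1 in 20 such groups. In old dmPGE2, mouse 485 was high for Rpl38 (136 CPM, others 102 to 108), Rpl37a (485.0 CPM, others 341 to 366) and Rpl35 (255 CPM, others 185 to 197). Mouse 486 of the same group was low for Rps3 (788 CPM, others 856 to 865). In young dmPGE2, mouse 483 was high for Rps20 (300.4 CPM, others 253 to 258). In young vehicle, mouse 478 was high for Rpl7 (764 CPM, others 579 to 604) and mouse 477 for Rps27 (4.14 CPM, others 2.01 to 2.23).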

How the results depend on the processing

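The alternative runs were followed for the called members reported here and for Rps4l, but not for the other called genes outside the members. No called change among those followed turned its sign under any alternative run. Some medians of the members near 0 did with 1 mouse left out: dmPGE2 in old mice (0.05 to -0.02 without mouse 485), dmPGE2 on the second date (-0.04 to 0.05 without 486 and 0.04 without 484), the difference between dates (0.09 to -0.01 without 485), the dates in vehicle (0.05 to -0.03 without 477) and age by date in vehicle (below). For dmPGE2 against vehicle, 0 members were called in most alternatives. The exceptions were the first date alone (1 in all mice, 19 in young mice) and DESeq2 in young mice (9). Leaving out the replicate block gave 0 called members in each of the 7 dmPGE2 comparisons, and medians of -0.07 in all, -0.22 in young and 0.05 in old mice and 0.27 for their difference, so dropping the pairing by mouse changed no call. With 1 mouse left out, 0 members were called for dmPGE2 throughout. For old against young in vehicle the count went from 1 to 0 with DESeq2 size factors, TMM without the members, no filter, no term for date, the first date alone and the second date alone, and ran from 0 to 10 with 1 mouse left out (10 without mouse 477, 0 without any other). For old against young in dmPGE2 the count of 6 became 15 by DESeq2, 10 by limma-voom, 1 with no term for date, 51 on the first date alone and 0 on the second date alone, and ran from 1 to 46 with 1 mouse left out. For the dates in vehicle the count of 5 became 2 with TMM without the members and with no filter, and 0 to 1 with 1 mouse left out. The members' median for the age by date difference in vehicle was -0.06, and ran from -0.16 (without mouse 478) to 0.091 (without mouse 477), with 0.0075 without mouse 484. Without the 100 genes of highest mean, the shares were 2.33% (vehicle) and 1.99% (dmPGE2) in young and 2.21% and 2.25% in old mice, as several members are among the genes removed. The cause of the other changes was not tested, beyond the fewer mice in single dates and in fits with a mouse left out. What depth limits was not tested by downsampling. Rpl34, Rps27 and Rpl30 have an SE of 0.23 to 0.44 for dmPGE2 in young mice.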
